A study of Homo sapiens with 4 samples.

Results

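Mediator is the large protein complex that connects DNA-bound transcription factors with RNA polymerase II. Its head and middle modules bind the polymerase and the general transcription factors, its tail receives most activators, MED14 runs through all of them as a backbone, and a separable kinase module of a cyclin-dependent kinase, cyclin C, MED12 and MED13 controls whether Mediator can hold the polymerase. The C-terminal domain (CTD) of RPB1, the largest polymerase subunit, is a repeated heptad that Mediator contacts directly, and Thr4 is a residue of that heptad. The genes described here are 32 genes that encode Mediator subunits, out of 60708 genes in the count table. They were picked by symbol from a list of subunits that does not hold every Mediator gene of the table, and no measured value entered the rule. They comprise 7 head genes, 9 middle genes, MED14, 9 tail genes and 6 genes of the kinase module. CDK19, the paralogous kinase of the module, is included as its kinase. MED27, MED28, MED29 and MED30 sit where head and tail meet and are grouped with the tail.

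The line used was HEK293, derived from human embryonic kidney. Its endogenous RPB1 carried a degron, a tag through which auxin triggers destruction of the protein. For all 4 libraries the cells carried this degron, received an RPB1 plasmid by transient transfection and were given auxin 48 h later for 48 h. The plasmid encoded RPB1 with a 52X WT CTD in 2 libraries and with a 52X CTD with T4A, threonine 4 to alanine, in every repeat in the other 2. RNA was labeled with 4-thiouridine for 20 min, pulled down and sequenced on strand-specific libraries (TT-seq), so that the counts come mainly from RNA made during the labeling. A transient transfection reaches only part of the cells, and in bulk libraries a lower signal in every cell and fewer cells with signal cannot be told apart.

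The libraries held between 33188536 and 45605027 counts. Levels are given as counts per 1000000 counts of a library (CPM), normalized by TMM scaling factors. POLR2A, the gene of RPB1, had 9640 and 8720 CPM in the 52X WT libraries and 7492 and 8083 in the 52X T4A libraries, and gene counts do not separate plasmid from endogenous transcripts or WT from T4A. Of 7 markers of HEK293 cells, NEFM had at most 6 counts in a library, and PAX2 and LHX1 were low, at 1.82 to 2.78 and 3.16 to 3.64 CPM. KRT18 lay between 18.6 and 23.0 CPM, VIM between 41.6 and 48.5, EYA1 between 54.1 and 61.2 and KRT8 between 65.3 and 90.6. Of 5 matched markers of other cell types, COL1A1 reached 2.95 CPM and the other 4 at most 1.10 CPM. The correlation of log2 CPM over tested genes was 0.996 between the 52X WT replicates and 0.988 between the 52X T4A replicates. 52X T4A replicate 2 correlated at 0.994 with each WT library, and 52X T4A replicate 1 at 0.985 and 0.986, so that 52X T4A replicate 1 stood apart and values that rest on it are given with and without it.

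Which Mediator genes can be measured depended on their neighbors. Reads that fall on 2 genes of the same strand were not counted, and 5 members share more than 10% of their span with such a gene. MED20 (chromosome 6, 41905354 to 41921139), which encodes a head subunit that pairs with MED18, lies wholly inside a longer protein-coding gene model of 127.8 kb and is listed at 0 in all 4 libraries. MED26 (chromosome 19, 16574907 to 16629062), the middle subunit that contacts elongation factors, is wholly covered by longer gene models and is also listed at 0 in all 4. These zeros give no level of either gene, since none of their bases could be counted.

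MED17, the central subunit of the head, had 243 and 298 counts in 52X WT and 231 and 212 in 52X T4A, from the 8.4% of its span that no other gene of its strand covers. MED7, a middle subunit that pairs with MED21, had 20 and 20 counts in 52X WT and 14 and 16 in 52X T4A. Its listed span of 21.6 kb is 74.8% free, but HAVCR2 covers the whole 5.4 kb of its RefSeq span, so these counts come from the upstream part of the listed span. MED6, the conserved head subunit, is free over 62.0% of its span. The other 27 members share at most 10% of their span, and levels between genes are compared among these 27.

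**Figure D1:**
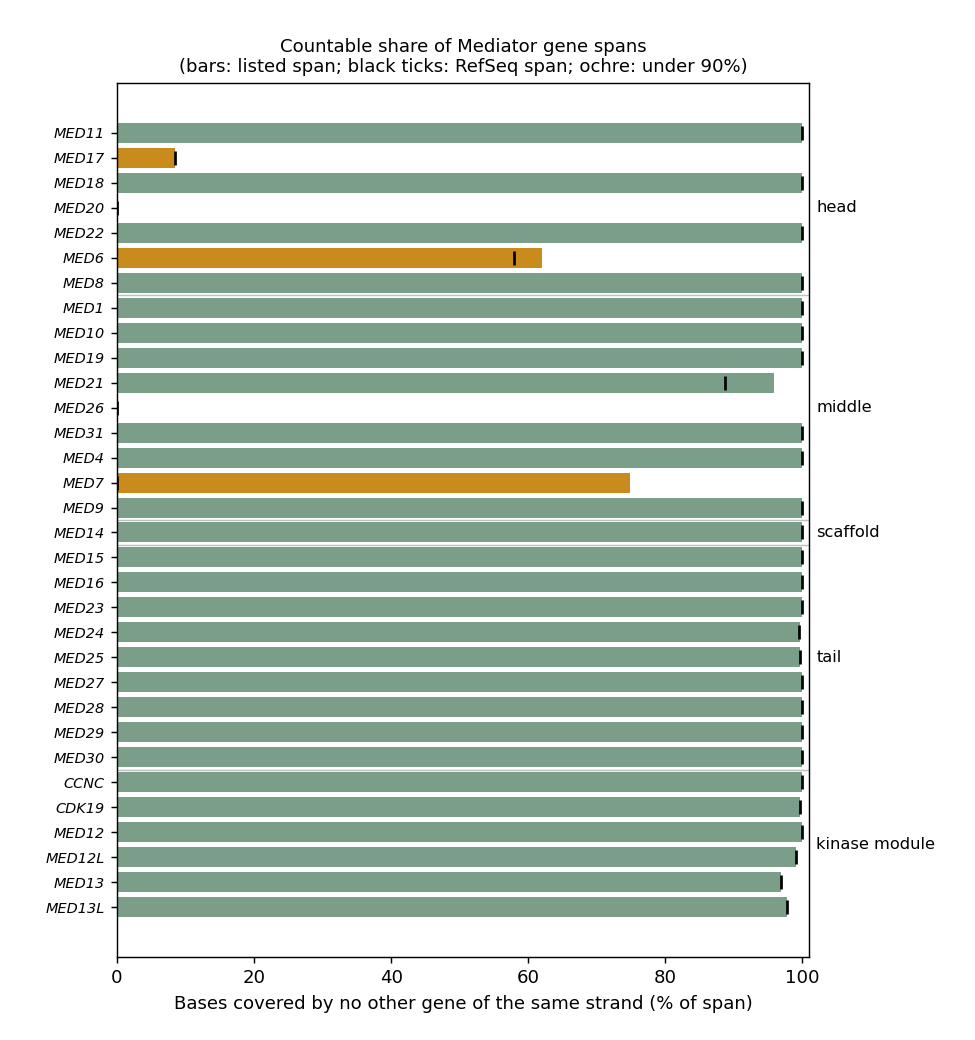
Share of each Mediator gene's span, in percent, that no other gene of the same strand covers, by module. Bars give the listed span and black ticks the RefSeq span, and MED20 and MED26 are at 0, MED17 is at 8.4% and MED7 has a RefSeq span at 0.

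The 32 genes took between 0.328% and 0.337% of all counts in each library. Long genes dominated this share, and MED13L, MED27 and MED13 together held between 49.5% and 51.6% of the members' counts. On the scale of CPM per kb of listed length the median of the 27 members was 2.18 and 2.24 in 52X WT replicates 1 and 2 and 2.55 and 2.27 in 52X T4A replicates 1 and 2. The median of tested protein-coding genes was 0.667 and 0.653 in the 52X WT libraries and 0.559 and 0.616 in the 52X T4A libraries. It lay below the median of the 27 members in each library. The coding genes were not filtered for overlap as the 27 members were. Bases shared with another gene lower the density, so these medians rest on unlike sets. The densest and the sparsest member differed by 22.2-fold and 22.8-fold in the 52X WT libraries and by 42.7-fold and 26.4-fold in 52X T4A replicates 1 and 2. The sparsest was CDK19, except in 52X T4A replicate 1, where MED16 had 0.189 CPM per kb and CDK19 0.350. The 42.7-fold value thus rests on MED16 in that library.

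MED10, a middle subunit, was the densest member with 8.47 ± 0.431 CPM per kb in 52X WT and 8.08 ± 0.0356 in 52X T4A (SD, n = 2). MED22, a subunit of the head's helical bundle, followed with 5.75 ± 0.525 CPM per kb in 52X WT and 4.87 ± 1.23 in 52X T4A, and MED29 with 5.33 ± 0.0251 and 5.94 ± 0.0736. These 3 genes are short, between 6.7 and 9.8 kb, and their 52X WT libraries did not overlap with the next member in the order. Below them came MED28, MED4, CCNC and MED31, between 4.33 and 3.41 CPM per kb in 52X WT. The 52X WT values of MED28 and MED4, MED4 and CCNC, and CCNC and MED31 overlapped. Within each 52X WT library MED28 lay above MED4 and MED4 above CCNC. CCNC lay below MED31 in 52X WT replicate 1 and above it in 52X WT replicate 2.

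MED13, MED9, MED18, MED13L, MED27, MED11 and MED8 lay between 3.09 and 2.27 CPM per kb in 52X WT, and the neighbors from MED9 to MED8 overlapped. MED15, the tail subunit known as a partner of SREBP, MED19 and MED1, the subunit that nuclear receptors bind, lay between 1.99 and 1.87, and MED21, MED14, MED24, MED23 and MED30 between 1.59 and 1.29. The 5 sparsest members were MED25 with 0.834 ± 0.171, MED12L with 0.602 ± 0.0154, MED16 with 0.595 ± 0.0553, MED12 with 0.447 ± 0.0738 and CDK19 with 0.376 ± 0.0116 CPM per kb in 52X WT (SD, n = 2). The 52X WT libraries of MED12L and MED16 overlapped, and those of MED12 lay above both of CDK19. Of the neighbors in the order, 13 pairs overlapped and 13 did not. The listed spans of MED4 (41.8 kb) and MED21 (43.8 kb) are longer than their RefSeq spans of 19.4 and 16.4 kb. Whether this lowers their density on this scale was not tested.

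**Figure D2:**
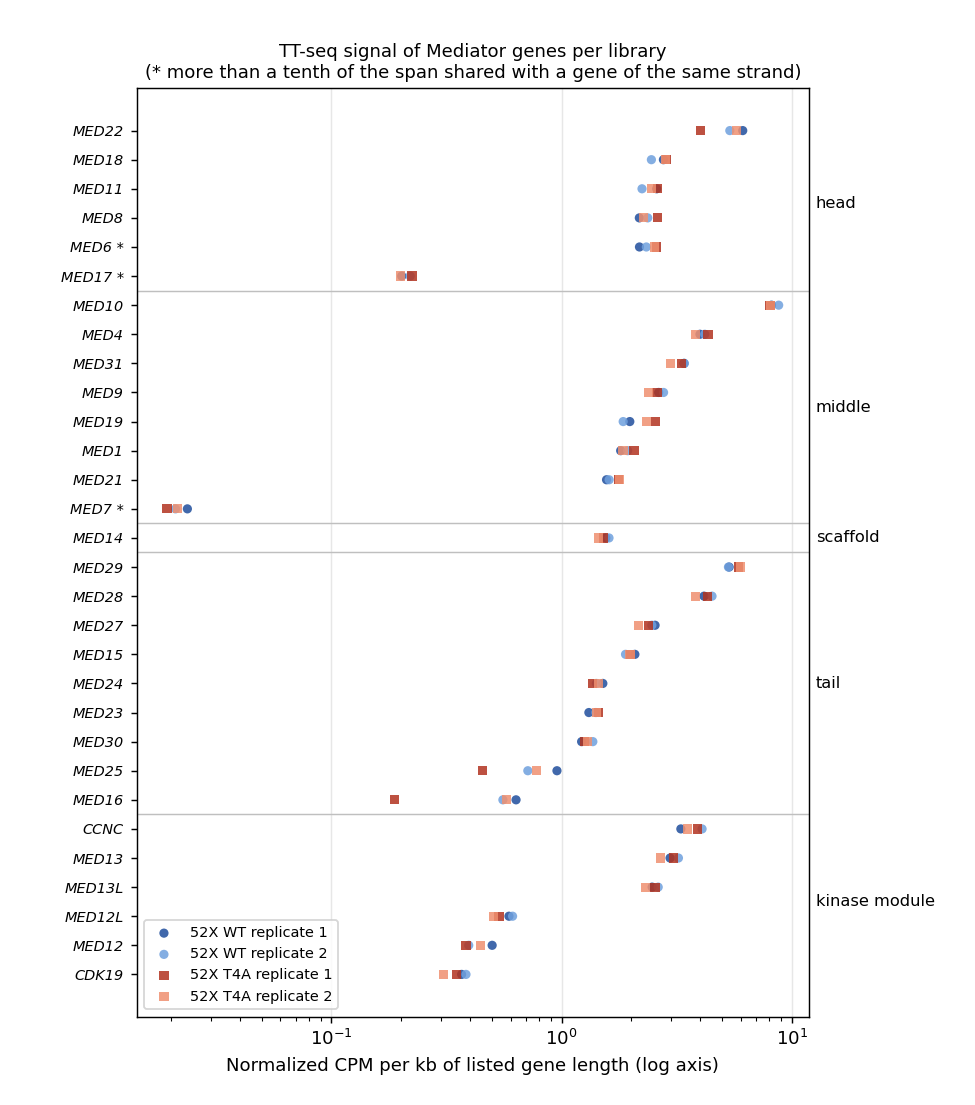
Normalized CPM per kb of listed gene length (log axis) of the 30 Mediator genes with counts, by module, with circles for the 52X WT and squares for the 52X T4A libraries. By the 52X WT mean, MED10 is highest and CDK19 lowest among genes without a star. The 52X T4A replicate 1 square of MED16 lies apart at 0.189, below every value of CDK19.

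The kinase module held both dense and sparse genes. Of its 6 genes, CCNC, which encodes cyclin C, had 3.69 ± 0.551 CPM per kb in 52X WT, and MED13 and MED13L, which dock the module on the core, had 3.09 ± 0.183 and 2.55 ± 0.109, whereas MED12, which activates the kinase, MED12L and CDK19 were among the 5 sparsest members. MED12L (chromosome 3, 151085697 to 151437072) spans 351.4 kb and MED12 (chromosome X, 71118556 to 71142454) 23.9 kb. MED12L therefore had between 16.8 and 22.8 counts per count of MED12 in a library, and between 1.14 and 1.55 times its density per kb of listed length. Per kb of exonic length the ratio was between 20.3 and 27.6, so the contrast between these genes depends on the length used. In log2, the density ratio per kb of listed length of MED12L over MED12 was 0.24 and 0.63 in 52X WT and 0.48 and 0.19 in 52X T4A, so the groups overlapped.

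For MED13L over MED13 the log2 density ratio was −0.26 and −0.29 in 52X WT and −0.26 and −0.22 in 52X T4A, a ratio between 0.817 and 0.861 in all 4 libraries. MED13L was thus the less densely read paralog in every library, by a nearly constant factor. The difference of T4A minus WT was 0.04 for this pair and −0.10 for MED12L over MED12 in log2, with SDs between replicates of 0.02 to 0.03 and of 0.20 to 0.28. An exact permutation test of 2 against 2 libraries cannot go below p = 0.333, and no other test of these ratios was run.

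The comparison of 52X T4A with 52X WT sets cells given an RPB1 plasmid without Thr4 in its CTD against cells given one with it. The counts do not show how far the RPB1 of the plasmid replaced the endogenous one. As libraries were scaled to each other, the comparison asks whether RNA synthesis at these genes differs relative to other genes. No Mediator gene passed the test. Of the 30 members with enough counts, 0 were called by edgeR, which required a fold change above 1.5 beside an adjusted p-value below 0.05, where 0.00429% of 23321 tested genes were called. DESeq2, with 0.455% of genes called, also called 0 members. It gave no adjusted p-value for at least MED7 and MED17, which it could thus not call. The adjusted p-values of the members in edgeR ran from 0.270 to 0.999. At an unadjusted p-value below 0.05, 1 member was higher and 1 lower in 52X T4A, against 7.45% of tested genes higher and 8.02% lower. With library size in place of TMM, 4 members were higher and 1 lower, where 10.5% of tested genes were higher and 6.31% lower.

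The intervals limit how large a difference relative to other genes could have been missed. A shift shared by most genes would be removed by the scaling of the libraries and would not show in them. For 25 of the 30 members, or 83.3%, the 95% interval lay within 1.5-fold either way, against 41.3% of all tested genes. The median standard error of the log2 fold change was 0.11 for the members and 0.21 for all tested genes. The 5 members whose interval reached past 1.5-fold were MED16, MED25, MED22, MED7 and MED19. The median log2 fold change of the 30 members was −0.06, with 11 above 0 and 19 below 0, beside −0.0008 for all tested genes. With library size in place of TMM, which moved the median of all tested genes to 0.05, the members' median was −0.01, with 14 above 0 and 16 below. Against the mean of the WT libraries, the members' median was −0.01 in 52X T4A replicate 1 and −0.05 in 52X T4A replicate 2, and it was −0.02 and 0.02 in 52X WT replicates 1 and 2.

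Both 52X T4A libraries lay above both 52X WT libraries in 6 members, or 20.0%, against 24.8% of tested genes, and below both in 7 members, or 23.3%, against 24.7%. The members above were MED6, MED18, MED19, MED21, MED23 and MED29. The members below were MED9, MED10, MED12L, MED14, MED27, MED31 and CDK19. Both shares were near those of all genes.

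**Figure D3:**
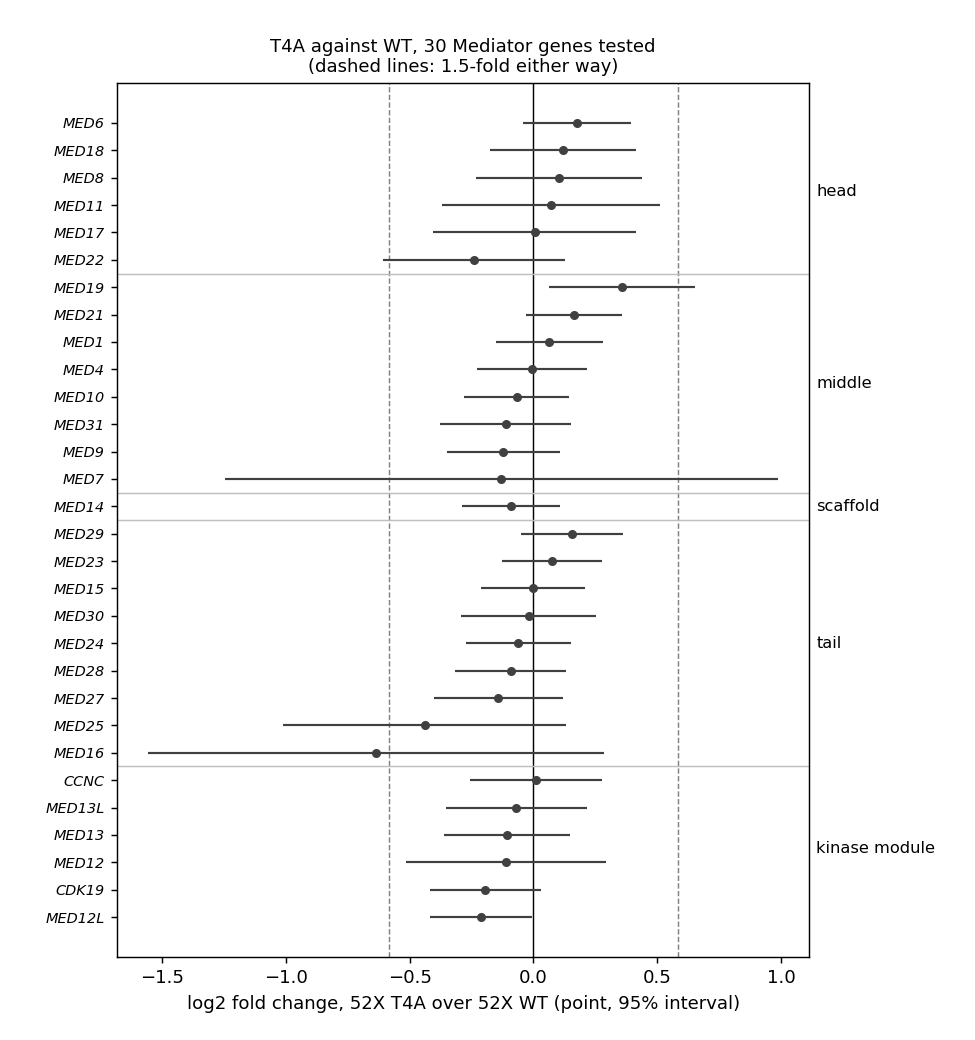
Log2 fold change of 52X T4A over 52X WT from edgeR, with its 95% interval, for the 30 tested Mediator genes by module. The intervals of all but MED19 and MED12L cross 0, 25 stay inside the dashed lines at 1.5-fold, and the widest belong to MED7, MED16 and MED25.

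The head genes other than MED22 had values at or slightly above 0. MED6 had 42.4 and 45.4 CPM in 52X WT and 50.1 and 49.1 in 52X T4A, and MED18 had 19.3 and 17.1 CPM in 52X WT and 19.8 and 19.7 in 52X T4A. In each of these genes both 52X T4A libraries were the higher, but the lowest 52X T4A library of MED18 exceeded the highest 52X WT library by less than the gap between the 52X WT libraries. Their log2 fold changes were 0.18 (95% interval −0.04 to 0.39) and 0.12 (−0.18 to 0.41). MED8, which had 0.10, MED11, which had 0.07, and MED17, with 0.004, had overlapping groups.

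Among the middle genes, MED19 (chromosome 11, 57703714 to 57712323), which encodes a subunit of the hook that contacts the polymerase, had the highest log2 fold change of all members. It had 17.0 and 15.95 CPM in 52X WT and 22.1 and 20.1 in 52X T4A, from 667 to 742 counts a library. Both 52X T4A libraries were above both 52X WT libraries. The log2 fold change was 0.36 (SE 0.13, 95% interval 0.06 to 0.65), with an unadjusted p = 0.0233 and an adjusted p = 0.270 from edgeR. Leaving out 1 library at a time gave 0.29 to 0.41, with an unadjusted p of 0.148 without 52X WT replicate 2 and below 0.05 only without 52X T4A replicate 2 (0.00912).

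MED21, the partner of MED7, had 68.7 and 70.5 CPM in 52X WT and 77.4 and 78.4 in 52X T4A, a log2 fold change of 0.16 (95% interval −0.03 to 0.36). MED10, the densest member, had 54.7 and 58.8 CPM in 52X WT and 54.0 and 54.3 in 52X T4A, a log2 fold change of −0.07 (95% interval −0.28 to 0.14). MED1 had 84.9 and 91.0 CPM in 52X WT and 97.0 and 86.8 in 52X T4A, and these groups overlapped. MED9 and MED31, each lower in both 52X T4A libraries, had log2 fold changes of −0.12 and −0.11, and MED4 had −0.007. MED14, the backbone, had 136 and 141 CPM in 52X WT and 133 and 127 in 52X T4A, a log2 fold change of −0.09 (95% interval −0.29 to 0.11), so a change of 1.5-fold in either direction lies outside its interval.

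In the kinase module, 5 of 6 genes had a log2 fold change below 0, beside 19 of the 30 tested members. The module's median was −0.11, beside −0.06 for the 30 members. MED12L had 208 and 215 CPM in 52X WT and 188 and 178 in 52X T4A. Both 52X T4A libraries were below both 52X WT libraries, and it was the member lower in 52X T4A at an unadjusted p-value below 0.05. Its log2 fold change was −0.21 (SE 0.09, 95% interval −0.42 to −0.004), with an unadjusted p = 0.0464 and an adjusted p = 0.318 from edgeR. The unadjusted p from edgeR was 0.0194 with no filter, 0.0234 with library size and 0.0392 with relative log expression factors in place of TMM. DESeq2 gave 0.0138. In edgeR it was 0.0503 with at least 10 counts required in every library and 0.0728 with protein-coding genes only. With the replicate number as a block it was 0.200. Leaving out 1 library at a time gave log2 fold changes from −0.25 to −0.18.

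CDK19 had 75.8 and 79.1 CPM in 52X WT and 72.2 and 63.2 in 52X T4A, with no overlap of the groups. Its log2 fold change was −0.19 (95% interval −0.42 to 0.03), −0.29 without 52X T4A replicate 1 (unadjusted p = 0.0415) and −0.12 without 52X T4A replicate 2. MED12 had 11.9 and 9.44 CPM in 52X WT and 9.18 and 10.6 in 52X T4A, so its groups overlapped. MED13 had 363 and 395 CPM in 52X WT and 375 and 330 in 52X T4A. MED13L had 791 and 841 CPM in 52X WT and 815 and 740 in 52X T4A. CCNC had 87.2 and 108 CPM in 52X WT and 103 and 93.4 in 52X T4A. In these 4 genes the gap between the replicates of each condition was larger than the difference between the group means, and all 6 intervals of the module lay within 1.5-fold either way.

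The tail held the 2 lowest log2 fold changes of all members, and both rested on 52X T4A replicate 1. MED16 (chromosome 19, 867630 to 893218) encodes a tail subunit and had 16.2 and 14.2 CPM in 52X WT, 4.83 in 52X T4A replicate 1 and 14.8 in 52X T4A replicate 2, from 635, 627, 162 and 510 counts. Only 52X T4A replicate 1 was low, and 52X T4A replicate 2 lay between the 52X WT libraries. The log2 fold change was −0.64 (SE 0.40, 95% interval −1.55 to 0.28, adjusted p = 0.464 from edgeR). It was −0.04 without 52X T4A replicate 1 and −1.67 without 52X T4A replicate 2.

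MED25 (chromosome 19, 49818282 to 49840383), the tail subunit that binds activation domains such as that of VP16, had 21.1 and 15.8 CPM in 52X WT, 9.98 in 52X T4A replicate 1 and 17.2 in 52X T4A replicate 2. Again 52X T4A replicate 2 lay between the 52X WT libraries. The log2 fold change was −0.44 (95% interval −1.01 to 0.13), −0.09 without 52X T4A replicate 1 and −0.90 without 52X T4A replicate 2. MED22 (chromosome 9, 133338312 to 133348131), of the head, had the same order, with 60.1 and 52.9 CPM in 52X WT, 39.3 in 52X T4A replicate 1 and 56.4 in 52X T4A replicate 2, and its log2 fold change of −0.24 was 0.005 without 52X T4A replicate 1.

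When 52X T4A replicate 2 was left out, MED16 and MED25 were called by edgeR (2 of 30 members, where 9.96% of tested genes were called), and when 52X T4A replicate 1 was left out 0 members were called, where 0.794% of tested genes were. In these fits a single library stands for 52X T4A and is assumed to vary like the 52X WT libraries. MED16, MED22 and MED25 are also the 3 members with counts whose span has the highest GC content, at 62.7%, 56.8% and 55.2%.

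The gap between replicates moved with GC content across the members. The log2 ratio of 52X T4A replicate 1 over replicate 2 had a median of −0.15 in the 8 tested members with a GC content of at least 50% and of 0.14 in the other 22. It was −1.61 in MED16, −0.78 in MED25 and −0.52 in MED22, but 0.09 in MED11 and −0.03 in MED29, which have GC contents of 52.1% and 52.4%. Over the 30 members Pearson's r of this ratio with GC content was −0.688 and Spearman's rho was −0.417, and without MED16, MED22 and MED25 they were −0.265 and −0.2 over 27. Genes are not independent replicates, and all share the same 2 libraries.

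Between the 52X WT replicates the relation ran the other way over a narrower range, with r = 0.732 and rho = 0.701 over the 30 members and medians of 0.19 in the 8 members of high and −0.08 in the 22 of lower GC content. MED25 was highest here with 0.42, and CCNC, at a GC content of 35.1%, lowest with −0.31. The same signs held over 23046 tested genes, with r = −0.506 for the 52X T4A pair and 0.147 for the 52X WT pair. The part of GC content in the values of MED16, MED22 and MED25 was not tested.

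**Figure D4:**
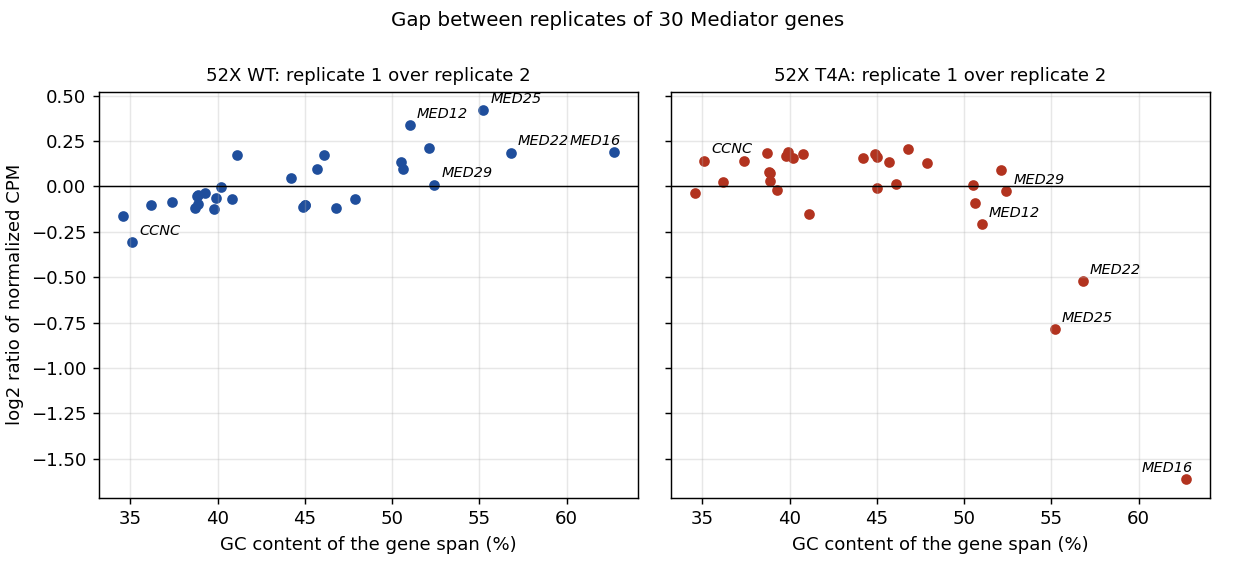
Log2 ratio of normalized CPM of replicate 1 over replicate 2 against the GC content of the gene span in percent, for 30 Mediator genes, in 52X WT (left) and 52X T4A (right). MED16, at −1.61, MED25 and MED22 lie far below 0 in the 52X T4A pair, and the 52X WT pair stays between −0.31 and 0.42.

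The remaining tail genes lay close to 0. MED29 had 49.9 and 49.6 CPM in 52X WT and 55.0 and 56.0 in 52X T4A, both higher, with a log2 fold change of 0.16 (95% interval −0.05 to 0.36). MED27, the tail gene with the most counts, had 578 and 560 CPM in 52X WT and 543 and 488 in 52X T4A, both lower, with a log2 fold change of −0.14 (95% interval −0.40 to 0.12). MED23, which the E1A protein binds, had 71.3 and 76.5 CPM in 52X WT and 78.5 and 77.2 in 52X T4A. Its lowest 52X T4A library was above its highest 52X WT library by less than the gap between the 52X WT libraries. MED28, MED24, MED30 and MED15 had log2 fold changes of −0.09, −0.06, −0.02 and −0.0002 with overlapping groups.

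The genes of the general transcription factors, which assemble with Mediator and the polymerase at promoters, were taken as a second list. Of 31 genes of TFIID, TFIIA, TFIIB, TFIIE, TFIIF and TFIIH, 29 were tested, 0 were called by edgeR, and TAF9 and GTF2H4, with 0.0% and 0.6% of their spans free of another gene of their strand, are listed at 0. At an unadjusted p-value below 0.05, 1 of the 29 was higher in 52X T4A (3.45%, against 7.45% of all tested genes) and 3 were lower (10.3%, against 8.02%). The higher one, TAF13, had 70.4 and 72.6 CPM in 52X WT and 83.9 and 82.6 in 52X T4A. Its log2 fold change was 0.22 (95% interval 0.03 to 0.41, adjusted p = 0.287 from edgeR). Leaving out 1 library at a time gave 0.19 to 0.22.

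The lower ones were GTF2A2, TAF10 and TAF4, with log2 fold changes of −0.56, −0.50 and −0.30 and adjusted p-values between 0.277 and 0.311 from edgeR. GTF2A2 and TAF10 were measured on at most 50.0% of their spans and had between 3.56 and 7.92 CPM in a library. Without 52X T4A replicate 1 the log2 fold changes were −0.35 for GTF2A2, −0.67 for TAF10 and −0.14 for TAF4, and without 52X T4A replicate 2 they were −0.81, −0.35 and −0.49. The median of the 29 genes was −0.07, beside −0.0008 for all tested genes. On the TMM scale both 52X T4A libraries were below both 52X WT libraries in 13 genes, or 44.8%, against 24.7% of all tested genes. They were above both in 3, or 10.3%, against 24.8%. These counts were not repeated with library size in place of TMM, which moved the median of all tested genes to 0.05. Some margins were very small. TAF11, counted as below, had 23.22 and 24.98 CPM in 52X WT and 23.21 and 22.07 in 52X T4A. The difference between this list and the Mediator genes was not tested.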

How the data were processed

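TT-seq was analysed in 4 libraries of HEK293 cells, 2 per condition, and groups and replicate numbers were taken from the sample titles. The authors deposited raw counts per gene for 60708 Ensembl genes, made with featureCounts, in columns named for uniquely aligned reads. The submitters' processing notes list FastQC, cutadapt 4.6, STAR 2.7.11b, Picard and deepTools 3.5.6 and the GRCh38 build, and the featureCounts version and settings are not given in the sources used here. The length that the authors deposited is the full span of each gene, which means that intronic reads entered the counts.

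Symbols were matched by stable identifier to GENCODE release 44 as lifted to GRCh37 (58742 genes matched), which also gave exonic length and GC content. Coordinates are those of the count table and of RefSeq on GRCh38. The span of each of the 32 members overlapped the RefSeq span of its symbol. Of 1120 lncRNA genes wholly inside a gene of their own strand with at least 1000 counts, 1120 are listed at 0, against 11.7% of 2711 inside such a gene of the other strand only. Reads over more than 1 gene of a strand were thus left out, and strand was used.

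All genes past the default filter of edgeR 4.0.16 on low counts (23321) were tested in R 4.3.3 with TMM normalization and the quasi-likelihood test, with no block, and p-values were adjusted over all of them by the Benjamini-Hochberg method. Calls needed a fold change above 1.5 and an adjusted p-value below 0.05. Standard errors and 95% intervals were derived from the F statistic. The code was tested on simulated data. Levels are TMM-normalized CPM, and between genes CPM per kb of listed length. Intervals and p-values cover the spread between libraries of a condition, and the labels do not say whether these came from separate cultures.

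No measured value entered the rule for the members, but the choice of these genes, the comparison list and the tests was made with earlier results of these data known. Values in every library are given for the 6 kinase module genes, MED14, MED1 and the highest and lowest tested member of head, middle and tail per kb. Further members were taken in order of unadjusted p-value. Of these, MED9, MED31 and MED28 are given without values in each library. Alternatives were DESeq2 1.42.0, other normalizations and filters, protein-coding genes only, the replicate number as a block and leaving out each library. Halved counts and the bases free of other genes were added after seeing the data. The genome sequence was used only for GC content.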

Additional observations from a re-analysis of the deposited data

How the results depend on the processing

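The count of 0 Mediator genes called did not change with library size in place of TMM, relative log expression factors, DESeq2 or no filter. Nor did it change with only protein-coding genes, a minimum of 10 counts in each library, no fold limit or halved counts. The count of 0 general transcription factor genes did not change with these settings either. DESeq2 gave no adjusted p-value for at least MED7, MED17, TAF10 and GTF2A2, so it could not call them. Leaving out 1 library at a time gave 0 to 2 called genes in each of these lists (MED16 and MED25, and ERCC2 and GTF2A2, without 52X T4A replicate 2), 0 to 4 Mediator genes at an unadjusted p-value below 0.05 against 2, and a median log2 fold change of −0.0882 to −0.0266 against −0.0649. Library size in place of TMM gave 5 Mediator genes at an unadjusted p-value below 0.05 (MED6, MED19, MED21 and MED29 higher, MED12L lower) and a median of −0.0134, with the median of all genes at 0.05. At least 10 counts in every library gave 1 gene, and protein-coding genes only a median of −0.0319. Per kb of exonic length the median level was 10.2 CPM per kb in place of 2.27, since introns leave the length but not the counts. With the replicate number as a block (replicate block), 433 genes were called in all and 1 Mediator gene, MED16 (log2 fold change −0.82). MED16 and MED25 then had an unadjusted p-value below 0.05, and MED12L (0.200) and MED19 (0.0526) did not. The numbers are not known to pair the samples: after subtraction of the group means, libraries with the same number correlated at −0.0691. Of 24 members followed across the fits, 5 changed sign in some fit. Those with a library left out ranged from −0.289 to 0.055 for MED12, −0.146 to 0.151 for CCNC, −0.012 to 0.126 for MED1, −0.0748 to 0.0699 for MED17 and −0.538 to 0.0051 for MED22. With no filter, CCNC was −0.0136 and MED17 −0.0201. Except where stated, the cause was not tested. Depth limits MED7, MED11, MED17 and MED12, which had at most 467 counts in a library.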

Other observations

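Low counts in the table were mostly even numbers. Of the genes with 1 to 10 counts, between 83.1% and 86.5% had an even count in each library, and 3714 to 4228 genes had exactly 2 counts where 572 to 721 had exactly 1. Among genes with over 1000 counts the even share was between 51.9% and 56.1%. All 4 counts of MED7 are even. Whether read pairs or single mates were counted is not given in the sources used here. With all counts halved, 0 Mediator genes were called by edgeR, MED19 had a log2 fold change of 0.38 and MED12L of −0.19, and MED7 no longer passed the filter.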
